A study of Rattus norvegicus with 8 samples.

Results

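The genes described here are 8 genes of the MHC class II antigen presentation pathway: the invariant chain Cd74, the classical chains RT1-Da, RT1-Db1, RT1-Ba and RT1-Bb, the peptide exchange chains RT1-DMa and RT1-DMb, and the transactivator Ciita. They are read by every non-control probe that the array annotation gives one of these names, which made 10 of the 30367 probes and 8 of the 26214 gene names on the array. Of these, 9 probes of 7 genes passed the filter on dim probes and were tested among 24678 probes and 21296 genes, and RT1-Ba did not pass. RNA came from the hippocampus of male Sprague Dawley rats, an outbred stock. The exposed rats were held in a decompression chamber at a simulated 25000 ft, with an effective 8% oxygen, and formed 3 groups named by time: day 1, day 3 and day 7. The control rats stayed in normoxia. Each group had 2 single-colour arrays, and no genetic change or second treatment is named for any group. The labels of the last group disagree on its length, 7 days in the titles and 5 days in the exposure field, and it is called day 7 below. The age of the rats and the number of animals behind an array are not given in the labels. Nothing in the labels ties the 2 arrays to different animals, so the spread that the p-values rest on is that of the arrays and may be technical.

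MHC class II molecules are pairs of an alpha and a beta chain that show peptides from engulfed material to CD4+ T cells. The chains are built together with the invariant chain Cd74, which fills the peptide groove and guides the complex to endosomes. There cathepsins cut Cd74 down, and the DM pair exchanges the last piece of it for other peptides. In the rat the genes are named RT1, with RT1-D corresponding to human HLA-DR and RT1-B to HLA-DQ. In brain tissue class II is carried mainly by macrophages at the borders (meninges, perivascular spaces and choroid plexus), by few dendritic cells and by activated microglia, and resting microglia and neurons carry little. The coactivator Ciita, which interferon gamma induces, docks on a promoter module made of an X box and a Y box, bound by the RFX complex, CREB and NF-Y.

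Letters of that module are shown because most of the matched members hold them. RefSeq promoter windows (build GRCr8, from 250 bases before to 50 bases after each gene's start) were matched for 6 of the 8 members, all but RT1-DMb and Ciita. The following stretches of 60 bases are on the strand of the gene, 5′ to 3′, and capitals mark letters of the X-box core, ACNGATG, and of the Y box, TGATTGG, not the whole boxes. RT1-Da lies at chr20:4515319-4515378 on the plus strand, RT1-Ba at chr20:4576967-4577026 on the plus strand, RT1-Db1 at chr20:4560230-4560289 on the minus strand, RT1-Bb at chr20:4604167-4604226 on the minus strand and RT1-DMa at chr20:4712387-4712446 on the minus strand.
RT1-Da: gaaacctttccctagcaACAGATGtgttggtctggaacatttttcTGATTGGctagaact
RT1-Ba: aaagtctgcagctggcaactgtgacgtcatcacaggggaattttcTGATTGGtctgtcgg
RT1-Db1: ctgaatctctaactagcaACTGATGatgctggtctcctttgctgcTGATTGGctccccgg
RT1-Bb: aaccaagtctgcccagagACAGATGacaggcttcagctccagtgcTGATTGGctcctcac
RT1-DMa: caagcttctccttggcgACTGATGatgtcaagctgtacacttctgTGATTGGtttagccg

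The Y-box letters stood in 5 of the 6 windows and the X-box letters in 4, each with the Y box 20 or 21 bases further on. Both motifs were searched on both strands, they do not overlap in these windows, and their letters were chosen with these windows in view. Among all 33469 windows of the same length, 7.06% held the Y letters, 10.2% the X letters and 0.0418% (14 windows) held X followed by Y on the same strand with 10 to 30 bases between them. Those 14 included RT1-Da, RT1-Db1, RT1-Bb and RT1-DMa, and also RT1-DOb, a chain of the DO pair that restrains DM. The window of RT1-Ba had the Y letters alone and that of Cd74 neither, which says only that these letters are not in those windows. A match describes letters, not a binding site.

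**Figure D1:**
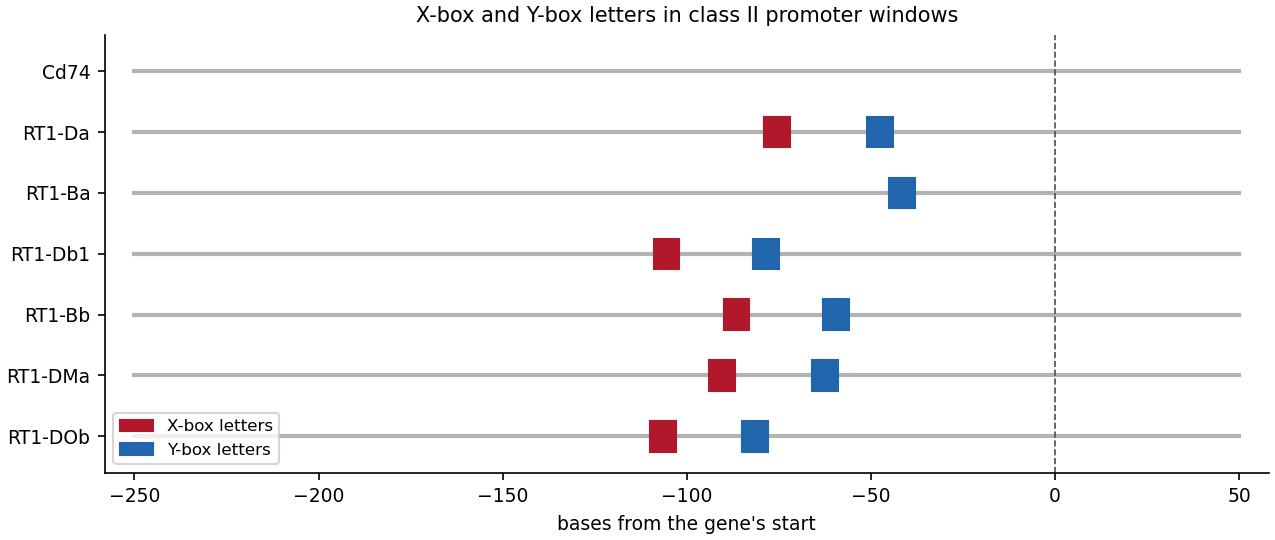
X-box letters (red) and Y-box letters (blue) along the promoter windows of 6 class II members and RT1-DOb, with bases from the gene's start on the horizontal axis (dashed line). In 4 members and RT1-DOb the X letters precede the Y letters upstream of the start, while RT1-Ba shows the Y letters only and Cd74 shows neither.

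Some properties of the arrays touch every result below. The 8 arrays shared 1 slide and 1 scan, and each group took neighbouring positions on it, so slide position and group cannot be told apart. Detection and brightness differed between the groups. Normoxia arrays had 85.6% and 84.5% of their spots well above background, and day 1 arrays 80.6% and 82.1%. Both day 3 arrays had 75.7%, and the day 7 arrays 77.0% and 72.6%. An array's 75th percentile lay at 2684 and 2321 units in normoxia and 2214 and 2247 on day 1. It was 1710 and 1566 on day 3 and 1407 and 1393 on day 7. The part of this brightness in the results for dim probes was not tested. No spot was saturated, and the median gap between paired arrays of a group was 0.061 to 0.095 on the log2 scale. Marker lists of neighbouring tissues differed between the groups. The summed level of 20 choroid plexus genes, in multiples of an array's 75th percentile, was 128 to 139 in normoxia, 4.85 to 4.95 on day 1, 169 to 181 on day 3 and 13.9 to 14.4 on day 7. The gene Ttr carried 88.7% to 89.5% of that sum in normoxia and 92.0% to 92.7% on day 3, and without it the sum was 14.5 on both normoxia arrays, 3.58 to 3.63 on day 1, 13.3 to 13.5 on day 3 and 4.45 to 4.65 on day 7. The sum of 15 striatal genes was 7.98 to 8.00 in normoxia, 53.6 to 54.2 on day 1, 6.64 to 6.77 on day 3 and 6.20 to 6.50 on day 7. The sum of 14 genes of leptomeninges and fibroblasts was 28.8 to 28.9, 13.4 to 13.5, 17.4 to 17.5 and 12.3 to 12.4 in the same order of groups. The gene Igf2 carried 42.4% to 42.6% of that sum on day 3 and 21.6% to 32.2% in the other groups. Without Igf2 the sum was 19.5 to 19.6, 10.3 to 10.4, 9.99 to 10.1 and 9.63 to 9.69, with no higher level on day 3 than on day 1. Genes of hippocampal neurons summed to 51.9 to 53.2, 45.3 to 45.9, 56.1 to 56.8 and 50.4 to 51.9, again in that order. The gene Fibcd1 carried 41.9% to 61.7% of that sum, and without it the sum was 27.8 to 28.4, 26.3 to 26.4, 28.7 to 28.8 and 19.7 to 19.9. The part of these tissues in the class II results was not tested, and in tissue RNA fewer cells of a type and less RNA per cell cannot be told apart.

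Cd74, RT1-Da and 1 probe each of RT1-Db1 and RT1-Bb were lower in every exposed group than in normoxia, and each was lower on days 1 and 7 than on day 3. Levels below are log2 signal relative to the array's 75th percentile. For Cd74, the chaperone of the class II pair, they were -1.75 and -1.78 for normoxia, -3.41 and -3.36 for day 1, -2.93 and -2.90 for day 3 and -3.32 and -3.54 for day 7. No exposed array reached the normoxia arrays, and the day 3 pair stood above all 4 arrays of days 1 and 7. Against normoxia Cd74 fell 3.07-fold on day 1 (log2 change -1.62 ± 0.08, SE, adjusted p = 0.000225), 2.22-fold on day 3 (-1.15 ± 0.08, adjusted p = 0.000381) and 3.18-fold on day 7 (-1.67 ± 0.08, adjusted p = 7.19e-05, limma with Benjamini-Hochberg adjustment over all genes, as below).

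RT1-Da, the alpha chain of the D pair, had levels of -2.25 and -2.29 for normoxia, -3.66 and -3.43 for day 1, -3.18 and -3.09 for day 3 and -3.49 and -3.67 for day 7. The order of the groups was that of Cd74, with no overlap between exposed and normoxia arrays. It fell 2.42-fold on day 1 (log2 change -1.28 ± 0.10, adjusted p = 0.000965), 1.82-fold on day 3 (-0.87 ± 0.10, adjusted p = 0.00178) and 2.49-fold on day 7 (-1.31 ± 0.10, adjusted p = 0.000263). RT1-Ba, the alpha chain of the B pair, was not well above background on any array, with processed signals of 3.49 to 7.77 units, and no fold is given.

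**Figure D2:**
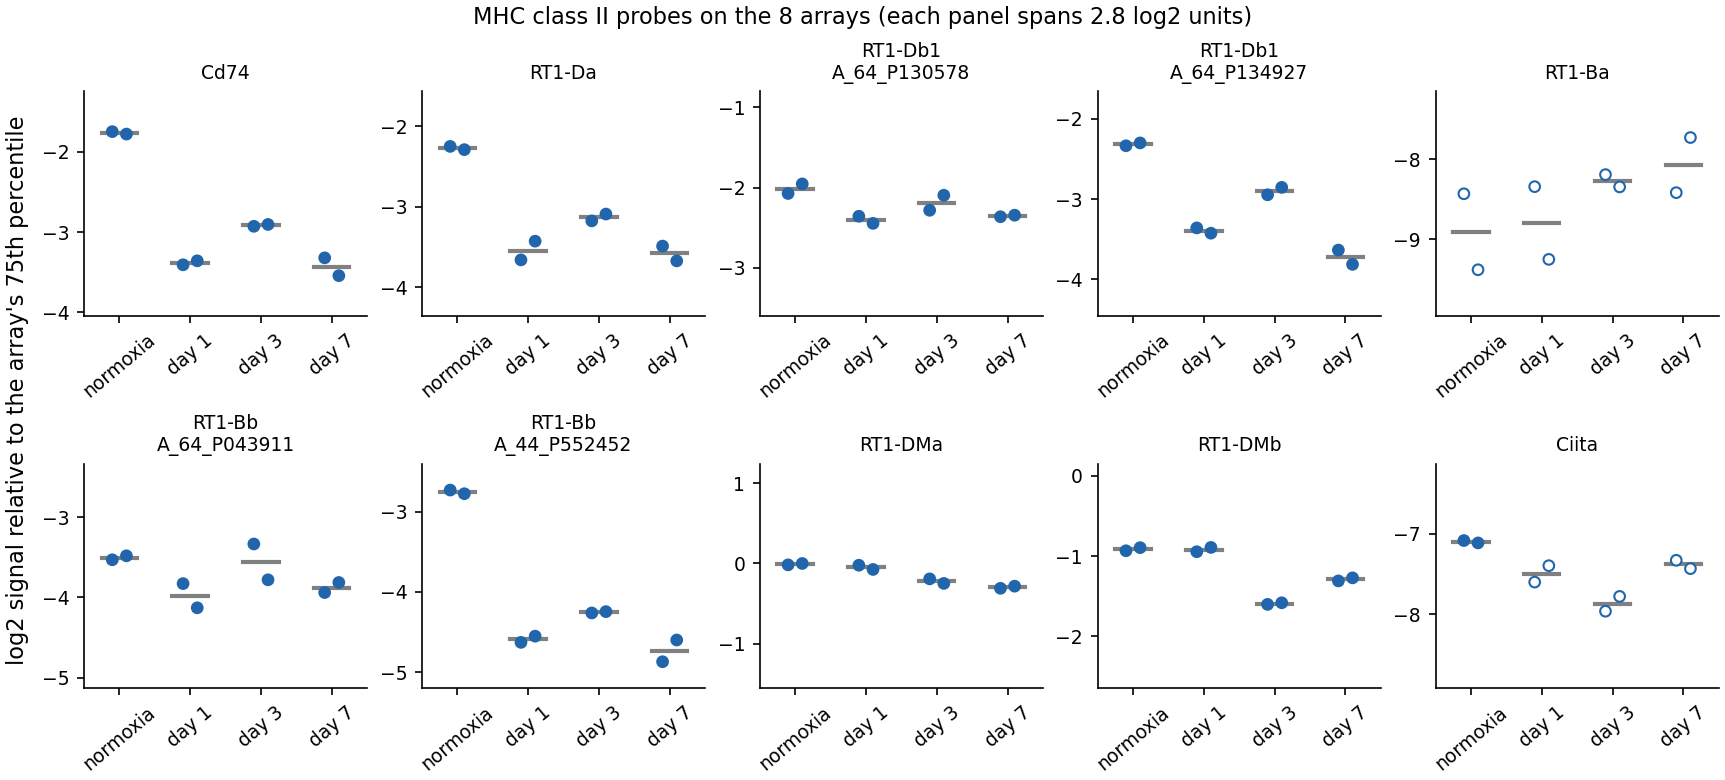
Level of each of the 10 class II probes on the 8 arrays, as log2 signal relative to the array's 75th percentile, in normoxia and on days 1, 3 and 7; grey bars are the means of 2 arrays and open circles are arrays where no spot of the probe was well above background. Cd74, RT1-Da and the probes A_64_P134927 and A_44_P552452 are lower on all 6 exposed arrays, while RT1-DMa and RT1-DMb sit near normoxia on day 1.

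The beta chains RT1-Db1 and RT1-Bb have 2 probes each, and the 2 probes of a gene did not give the same size of change. The first 30 bases of the 4 probes, of up to 60 bases each, are shown because the size of the fall turns on them. Their positions are those of the array annotation on build rn4, minus strand: chr20:4672665-4672724 for A_64_P130578, chr20:4671516-4671575 for A_64_P134927, chr20:4732187-4732246 for A_64_P043911 and chr20:4730533-4730583 for A_44_P552452. In each gene the second probe listed lies further toward the 3′ end of the minus strand. The labelling was primed with oligo dT. On the same build the annotation puts the probes of Cd74 at chr18:56765468-56765527 and RT1-Da at chr20:4641104-4641163 on the plus strand, and those of RT1-DMa at chr20:4844372-4844431, RT1-DMb at chr20:4830313-4830372 and Ciita at chr10:5087176-5087235 on the minus strand.
RT1-Db1 A_64_P130578: acaaaataagaagatgagtggagtcggggg
RT1-Db1 A_64_P134927: ttcaagcagaagaaataccattcatgcata
RT1-Bb A_64_P043911: tttgtgctgggggtgatcttcctcgggctt
RT1-Bb A_44_P552452: cagctgtgacagttgtgaaataccctagct

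For RT1-Bb, the 3′ probe A_44_P552452 had levels of -2.73 and -2.78 for normoxia, -4.63 and -4.55 for day 1, -4.26 and -4.25 for day 3 and -4.87 and -4.60 for day 7. Its fall, 3.57-fold on day 1 (log2 change -1.84 ± 0.09, adjusted p = 0.000298), 2.83-fold on day 3 (-1.50 ± 0.09, adjusted p = 0.000333) and 3.95-fold on day 7 (-1.98 ± 0.09, adjusted p = 7.53e-05 over all probes), was the largest among the class II probes. The other probe, A_64_P043911, has 1 spot and gave -3.53 and -3.48 for normoxia, -3.83 and -4.13 for day 1, -3.33 and -3.78 for day 3 and -3.94 and -3.81 for day 7. It stands for the gene in the fit over genes because its mean over all 8 arrays was the higher of the pair, although in normoxia alone it was the dimmer, so that choice depends on the fall of the other probe. None of its changes against normoxia passed the threshold, at -0.47 ± 0.17 (adjusted p = 0.0937), -0.05 ± 0.17 (adjusted p = 0.827) and -0.37 ± 0.17 (adjusted p = 0.122). The day 1 change passed without day 3 array 1 or without day 3 array 2 (adjusted p = 0.0445 for each). With the mean of the 2 probes instead, the changes of RT1-Bb were -1.15, -0.78 and -1.18, called on all 3 days (adjusted p = 0.00142, 0.00276 and 0.00042).

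For RT1-Db1, the 3′ probe A_64_P134927 had levels of -2.34 and -2.30 for normoxia, -3.36 and -3.43 for day 1, -2.95 and -2.86 for day 3 and -3.64 and -3.81 for day 7. It fell 2.11-fold on day 1 (log2 change -1.07 ± 0.07, adjusted p = 0.00069), 1.50-fold on day 3 (-0.58 ± 0.07, adjusted p = 0.00233) and 2.65-fold on day 7 (-1.41 ± 0.07, adjusted p = 9.46e-05). The other probe, A_64_P130578, also of 1 spot, gave -2.07 and -1.95 for normoxia, -2.36 and -2.44 for day 1, -2.28 and -2.09 for day 3 and -2.36 and -2.34 for day 7. This probe fell 1.31-fold on day 1 (-0.39 ± 0.08, adjusted p = 0.0174) and 1.27-fold on day 7 (-0.34 ± 0.08, adjusted p = 0.0148), and its day 3 change was -0.18 ± 0.08 (adjusted p = 0.127). The day 1 call was lost without normoxia array 2 (adjusted p = 0.0836), day 1 array 1 (0.0564) or day 1 array 2 (0.0915), and the day 7 call without normoxia array 2 (0.0746), day 7 array 1 (0.0588) or day 7 array 2 (0.0525). With median centring, described below, the day 7 change was -0.04 (adjusted p = 0.688).

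The difference between the 2 probes was itself tested, in a fit of the second brightest minus the brightest probe over the 3048 genes that had both, added after the values were seen. For RT1-Bb the 3′ probe fell by more than the other on day 1 (log2 difference -1.36 ± 0.20, adjusted p = 0.0239), day 3 (-1.45 ± 0.20, adjusted p = 0.00445) and day 7 (-1.61 ± 0.20, adjusted p = 0.0013). For RT1-Db1 the differences were -0.69 ± 0.09 (adjusted p = 0.0211), -0.41 ± 0.09 (adjusted p = 0.0199) and -1.07 ± 0.09 (adjusted p = 0.000373). Such a difference passed the threshold in 9.09% of the 3048 genes on day 1, in 37.3% on day 3 and in 55% on day 7. The labels do not give the RT1 haplotypes of the rats, and what sets the probes apart was not tested.

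The DM chains, which load peptides onto the classical pairs, passed no test on day 1 and were lower on days 3 and 7. RT1-DMa had levels of -0.02 and -0.00 for normoxia, -0.02 and -0.08 for day 1, -0.19 and -0.25 for day 3 and -0.31 and -0.28 for day 7. Its day 1 change was -0.04 ± 0.04 (adjusted p = 0.489), and it fell 1.16-fold on day 3 (log2 change -0.21 ± 0.04, adjusted p = 0.0088) and 1.22-fold on day 7 (-0.29 ± 0.04, adjusted p = 0.00204). RT1-DMb had -0.93 and -0.90 for normoxia, -0.95 and -0.89 for day 1, -1.60 and -1.58 for day 3 and -1.31 and -1.27 for day 7. The day 1 and normoxia arrays of RT1-DMb overlapped (-0.00 ± 0.04, adjusted p = 0.942), whereas it fell 1.60-fold on day 3 (-0.68 ± 0.04, adjusted p = 0.000262) and 1.30-fold on day 7 (-0.38 ± 0.04, adjusted p = 0.000706). With each array centred on its median instead, which raised the median change of all genes on day 7 to 0.26 from -0.03, the day 7 changes were 0.01 for RT1-DMa (turned in sign) and -0.08 for RT1-DMb (adjusted p = 0.171). The day 3 change of RT1-DMb was -0.53 and kept its call, and that of RT1-DMa was -0.06 (adjusted p = 0.243). Whether the DM chains differ from Cd74 in their change was not tested.

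Ciita, the transactivator, lay near the detection limit. On each normoxia array 1 of its 2 spots was well above background, and on the 6 exposed arrays neither was. Its levels were -7.08 and -7.11 for normoxia, -7.60 and -7.40 for day 1, -7.96 and -7.78 for day 3 and -7.33 and -7.43 for day 7. Its fitted changes were -0.40 on day 1 (adjusted p = 0.0278), -0.77 on day 3 (adjusted p = 0.0022) and -0.28 on day 7 (adjusted p = 0.0502, not called). For bounds, each exposed array was taken at its own signal or at the dimmest detected signal of that array, whichever was greater. The bounds were 1.32-fold, 1.16-fold and 1.04-fold lower in the same order and were not themselves tested. The direction is not settled: with normexp background correction the changes were 0.03, 0.35 and 0.60, and with quantile normalization the day 7 change was 0.29. Quantile normalization also ended the calls of days 1 and 3 (adjusted p = 0.943 and 0.138), as did an intensity trend in the prior variance (0.395 and 0.0946). The day 1 call was also lost without normoxia array 1 (adjusted p = 0.111), normoxia array 2 (0.0965) or day 1 array 1 (0.114), and the day 7 change passed without day 1 array 1 or 2 (0.0423) or day 3 array 1 or 2 (0.0456). The authors' deposited values gave -0.81, -1.19 and -0.69, called on all 3 days (adjusted p = 0.00443, 0.000833 and 0.00302). With a correction for the GC content of probes, chosen after seeing the data, the day 7 change was -0.51 (adjusted p = 0.00752).

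Over the 7 tested genes, each read by its brightest probe, 4 were called lower and 0 higher on day 1, where 20.2% of all genes were called lower. The 4 were Cd74, RT1-Da, RT1-Db1 and Ciita, and the count was 2 (Cd74 and RT1-Da) without normoxia array 2 or without day 1 array 1. On day 3, 5 were called lower and 0 higher (26.2% of all genes lower), and on day 7 also 5 lower and 0 higher (29.7% of all genes lower). Ciita is in the counts of days 1 and 3 but passed the filter through the normoxia arrays alone, so the filter favoured a lower call. With only probes detected on all 8 arrays, which leaves out Ciita, 3, 4 and 5 of 6 genes were called lower and 0 higher. Beside them stood 4334, 4862 and 5363 of 17570 genes called lower. The median change of the 7 was -0.40, -0.68 and -0.37, beside -0.07, -0.05 and -0.03 for all genes. With median centring the day 7 count was 2 (3730 of 21296 genes lower). With the mean of a gene's probes the counts were 5, 7 and 6 (4057, 5781 and 6673 genes lower). At a fold of at least 2 as well, Cd74 and RT1-Da were called on days 1 and 7 (2.10% and 9.45% of all genes lower) and Cd74 alone on day 3 (5.56%). The 3 comparisons share the normoxia arrays and are not independent of each other.

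**Figure D3:**
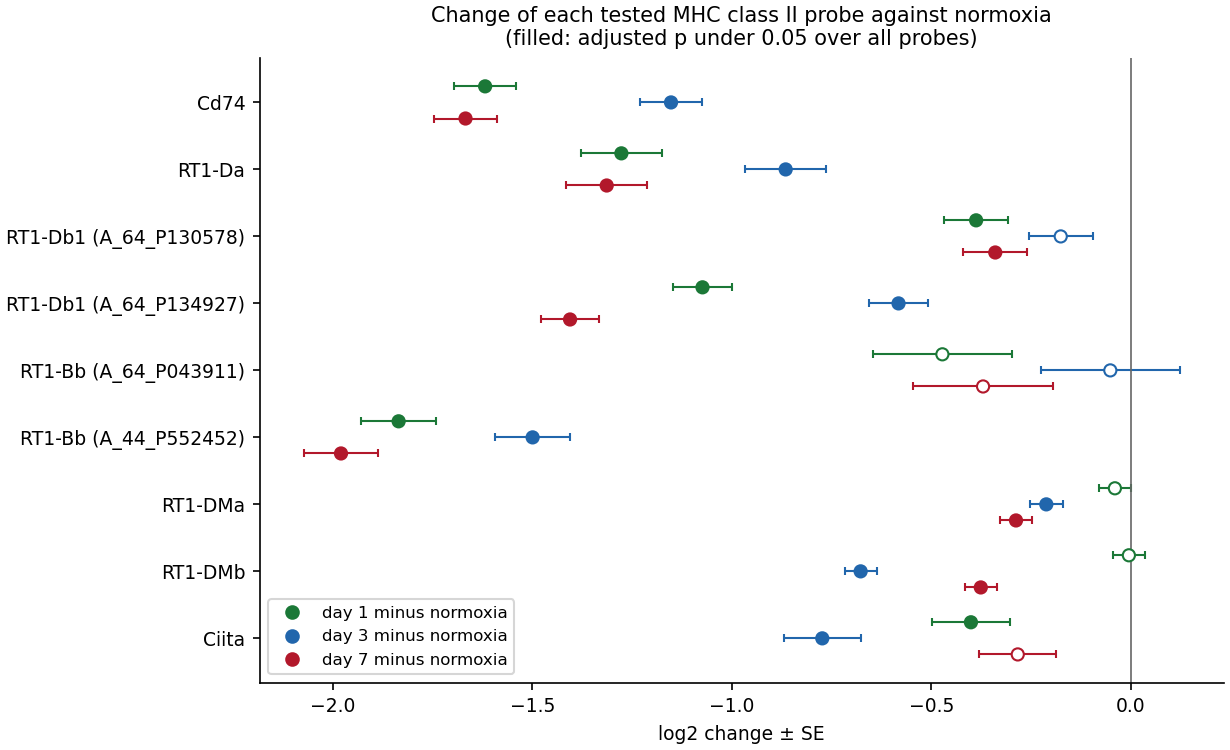
Log2 change ± SE of the 9 tested class II probes against normoxia on days 1, 3 and 7, filled where the adjusted p over all probes is under 0.05. The 3′ probe of RT1-Bb reaches -1.98 on day 7, whereas its other probe and both DM chains stay above -0.70 in all 3 comparisons.

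Between consecutive groups the members moved both ways. On day 3 against day 1, 2 genes were called higher (28.2% of all genes) and 3 lower (23.0%). Cd74 rose by a log2 change of 0.47 ± 0.08 on day 3 against day 1 (adjusted p = 0.00558) and RT1-Da by 0.41 ± 0.10 (adjusted p = 0.0211). RT1-DMb fell by 0.67 on the log2 scale (± 0.04, adjusted p = 0.000244) and RT1-DMa by 0.17 (± 0.04, adjusted p = 0.0174). Ciita, also counted as lower, was not well above background in either group, so its call rests on background signal. With only probes detected on all 8 arrays, 2 genes were called higher and 2 lower (6149 and 4379 of 17570 genes). The call of RT1-Da was lost without day 1 array 1 (adjusted p = 0.0809), day 3 array 1 (0.0546) or day 3 array 2 (0.0893), that of RT1-DMa without day 1 array 1 (0.0947) or day 3 array 2 (0.0819), and that of Ciita without day 1 array 2 (0.105) or day 3 array 1 (0.0998). Without day 1 array 1 the count of called members was 3, and with only these 2 groups fitted it was 2. The split of 2 higher and 3 lower was 4 higher and 1 lower with median centring and also with normexp. Median centring ended the calls of RT1-DMa (-0.05, adjusted p = 0.337) and Ciita (-0.25, adjusted p = 0.0855), while RT1-Bb (0.54, adjusted p = 0.0409) and RT1-Db1 (0.33, adjusted p = 0.0245) were then called higher. The 3′ probes rose too, RT1-Db1 by 0.49 ± 0.07 (adjusted p = 0.00391) and RT1-Bb by 0.34 ± 0.09 (adjusted p = 0.0318), where the RT1-Bb probe lost its call without any 1 of the normoxia, day 1 or day 3 arrays (adjusted p = 0.0585 to 0.135).

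On day 7 against day 3, 2 genes were called lower (18.3% of all genes) and 2 higher (24.2%). Cd74 fell by 0.52 on the log2 scale (± 0.08, adjusted p = 0.00552) and RT1-Da by 0.45 (± 0.10, adjusted p = 0.0195) on day 7 against day 3. RT1-DMb rose by 0.30 ± 0.04 (adjusted p = 0.00355). Ciita, also counted as higher, was again not well above background in either group. With only probes detected on all 8 arrays, 2 genes were called lower and 1 higher (3789 and 5335 of 17570 genes). The call of RT1-Da was lost without day 3 array 1 (adjusted p = 0.0546), day 3 array 2 (0.0841) or day 7 array 2 (0.0772), and with median centring (-0.30, adjusted p = 0.054), and that of Ciita without day 3 array 1 (0.0526) or day 7 array 1 (0.0562). Without day 3 array 1 the count of called members was 2. The 3′ probe of RT1-Db1 fell by 0.82 (± 0.07, adjusted p = 0.00143) and that of RT1-Bb by 0.48 (± 0.09, adjusted p = 0.0127), with the RT1-Bb call lost without day 3 array 1 (0.0511) or day 3 array 2 (0.0554), with normexp (-0.12, adjusted p = 0.172), with quantile normalization (-0.35, 0.0591) and with only the 2 groups fitted (0.0722).

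Other genes of class II handling were read from a list of 12 symbols, of which 8 were on the array and 7 were tested. On day 1, 2 were called lower and 2 higher (20.2% of all genes lower and 15.3% higher). On day 3, 5 were lower and 1 higher (26.2% of all genes lower and 24.2% higher), and on day 7, 4 lower and 1 higher (29.7% and 31.5%). Ctsl1, a cathepsin, was called higher on all 3 days, by 1.25-fold, 1.29-fold and 1.38-fold (adjusted p = 0.00368, 0.00141 and 0.000362). Ifi30, a thiol reductase that opens disulphide bonds of antigens, fell 1.60-fold on day 1 (log2 change -0.68 ± 0.04, adjusted p = 0.000306) and 1.18-fold on day 3 (adjusted p = 0.00397). March1, a ubiquitin ligase that removes class II from the cell surface, fell 1.94-fold on day 1 (-0.96 ± 0.07, adjusted p = 0.000705), 1.36-fold on day 3 (adjusted p = 0.00432) and 1.20-fold on day 7 (adjusted p = 0.0199). Ctss, the cathepsin that trims the invariant chain, rose 1.11-fold on day 1 (adjusted p = 0.0232) and fell 1.23-fold on day 3 (adjusted p = 0.0016) and 1.08-fold on day 7 (adjusted p = 0.0366), and Lgmn, an endosomal protease, fell 1.45-fold on day 3 (adjusted p = 0.000415) and 1.41-fold on day 7 (adjusted p = 0.000245). RT1-DOb, whose window carries the X and Y letters, had changes of -0.46, -0.65 and -0.74 with an SE of 0.45 (adjusted p = 0.479, 0.283 and 0.208). Of the 2 other class II region genes on the array, RT1-DOa was not well above background on any array and RT1-Ha on day 7 array 2 alone.

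The transcription factors of the X and Y boxes did not move one way. Of 13 tested genes of the list, 2 were called lower and 3 higher on day 1, 2 lower and 5 higher on day 3, and 5 lower and 5 higher on day 7. Rfx5, the RFX subunit that binds the X box, had a change of -0.17 ± 0.12 on day 1 (adjusted p = 0.341) and rose 1.34-fold on day 3 (adjusted p = 0.0358) and 1.88-fold on day 7 (log2 change 0.91 ± 0.12, adjusted p = 0.00182). Nfyb, a subunit of the Y-box factor NF-Y, rose 1.33-fold on day 1 (adjusted p = 0.00293) and 1.29-fold on day 3 (adjusted p = 0.00237), and fell 1.17-fold on day 7 (adjusted p = 0.009). Irf1, a factor that interferon gamma induces and that acts on a Ciita promoter, rose on all 3 days, by 0.29, 0.53 and 0.56 (adjusted p = 0.0101, 0.000995 and 0.000442). Irf8, a factor of macrophages and dendritic cells, was above background on 1 of 2 day 3 arrays, with no fold given for that day. It was undetected on both day 7 arrays, where its fitted change was -1.75 (adjusted p = 0.000103) and its untested bound 2.84-fold lower.

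Class I presentation genes serve CD8+ T cells. Of 30 tested, 2 were lower and 11 higher on day 1 (median change 0.21), 14 lower and 4 higher on day 3 (median -0.14), and 16 lower and 9 higher on day 7 (median -0.29). On day 1 Tap2, a peptide transporter subunit, rose 2.27-fold (log2 change 1.18 ± 0.06, adjusted p = 0.000294) and the class I gene RT1-A2 1.34-fold (0.42 ± 0.03, adjusted p = 0.000912). On day 7 RT1-A2 fell 2.48-fold (-1.31 ± 0.03, adjusted p = 2.65e-05), while B2m, the light chain of class I, rose 1.27-fold (adjusted p = 0.00358). In the interferon gamma pathway 1 of 17 tested genes was lower and 6 higher on day 1, 4 lower and 5 higher on day 3, and 4 lower and 6 higher on day 7. The list medians were 0.20, -0.11 and -0.03. Gbp2, a GTPase induced by interferon, rose 3.06-fold on day 1 (1.61 ± 0.05, adjusted p = 4.86e-05), 1.86-fold on day 3 and 1.69-fold on day 7 (adjusted p = 0.000222 and 0.00014), and Ifng itself did not pass the filter on dim probes. Jak1 fell 1.29-fold on day 3 and 1.88-fold on day 7 (adjusted p = 0.0017 and 7.05e-05). Icam1 had changes of -0.28, -0.36 and -0.54 on days 1, 3 and 7 (adjusted p = 0.00602, 0.00165 and 0.00025). Of 5 tested costimulation genes 3 were lower and 0 higher on each day, among them Cd83, a surface protein of activated antigen presenting cells, which fell 1.77-fold on day 1 (-0.83 ± 0.05, adjusted p = 0.000573), 1.86-fold on day 3 (adjusted p = 0.000303) and 1.34-fold on day 7 (adjusted p = 0.00161). Cd274, on this list and the interferon gamma list, is in the lower counts of days 3 and 7. It was undetected on all arrays of those days, and its untested bounds were 1.70-fold and 1.68-fold lower.

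**Figure D4:**
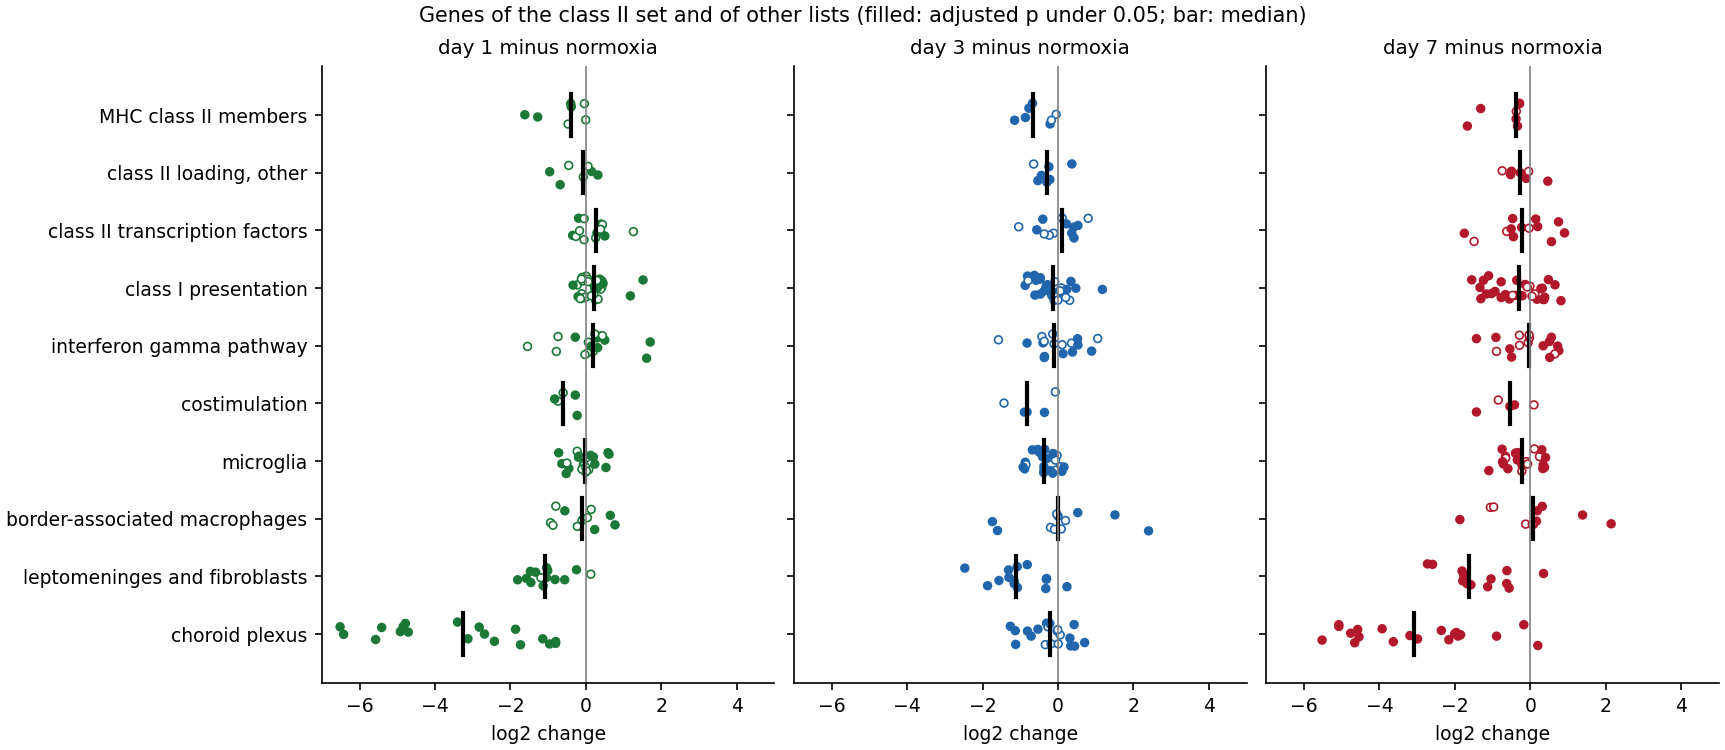
Log2 change against normoxia of each tested gene in the class II set and in 9 other lists on days 1, 3 and 7; points are genes read by their brightest probe, filled where the adjusted p is under 0.05, and black bars are list medians. The choroid plexus median is -3.27 on day 1, -0.20 on day 3 and -3.09 on day 7, and the class II median is -0.40, -0.68 and -0.37.

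Markers of the cells that can carry class II moved in part with the members. Of 22 tested microglial genes, 5 were lower and 6 higher on day 1 (median -0.03), 15 lower and 2 higher on day 3 (median -0.36), and 10 lower and 5 higher on day 7 (median -0.22). Their summed level was 47.2 to 47.9 in normoxia, 48.7 to 49.4 on day 1, 41.9 on both arrays of day 3 and 50.8 to 53.7 on day 7. Csf1r, the receptor that microglia and macrophages need to survive, rose 1.50-fold on day 1 (log2 change 0.59 ± 0.04, adjusted p = 0.000757) and fell 1.85-fold on day 3 and 2.14-fold on day 7 (adjusted p = 0.000181 and 4.99e-05). Aif1, the cytoskeletal protein Iba1 of microglia, had changes of -0.23, -0.03 and 0.24 (adjusted p = 0.117, 0.836 and 0.0706). Cx3cr1, the fractalkine receptor, had changes of -0.01 ± 0.12 on day 1 and -0.07 on day 3 (adjusted p = 0.97 and 0.647) and fell 1.68-fold on day 7 (adjusted p = 0.00333).

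Of 11 tested genes of border-associated macrophages, 1 was lower and 3 higher on day 1, 2 lower and 3 higher on day 3, and 1 lower and 5 higher on day 7. Mrc1, their mannose receptor, had changes of -0.80, -0.20 and -1.06 with an SE of 0.64 (adjusted p = 0.385, 0.814 and 0.208), and it was above background on both normoxia arrays, on 1 day 3 array and on no other. Cd163, their haemoglobin scavenger receptor, had a change of 0.14 on day 1 (adjusted p = 0.0651) and rose 1.44-fold on day 3 (adjusted p = 0.000732) and 1.12-fold on day 7 (adjusted p = 0.0253). Pf4, a chemokine that these cells and platelets carry, rose 1.71-fold on day 1 (log2 change 0.77 ± 0.06, adjusted p = 0.000774), 5.28-fold on day 3 (adjusted p = 4.05e-05) and 2.62-fold on day 7 (adjusted p = 5.45e-05). Cd36, a scavenger receptor, rose 1.57-fold, 2.85-fold and 4.43-fold (adjusted p = 0.00515, 0.00029 and 5.7e-05). Clec10a, also on the dendritic cell list, fell 1.47-fold on day 1 (-0.56 ± 0.04, adjusted p = 0.00074) and rose 1.14-fold on day 7 (adjusted p = 0.0098). Ms4a7, undetected on both day 3 arrays, had a day 3 change of -1.74 ± 0.40 (adjusted p = 0.0169), and the bound was 2.50-fold lower. Of the dendritic cell list, Itgax, Xcr1, Clec9a and Cd209a did not pass the filter, and of the 6 tested genes 2, 1 and 1 were lower and 0, 0 and 1 higher on days 1, 3 and 7. Of the B cell list, Ms4a1, Cd79b, Blk, Cd22 and Cr2 did not pass, and 1, 1 and 0 of 4 tested genes were lower and 0 higher, while of 9 tested T and NK cell genes 2, 2 and 3 were lower and 0 higher. The T and NK cell counts of days 3 and 7 include Prf1, undetected on all arrays of those days, with untested bounds of 1.09-fold and 1.06-fold lower. Of 7 tested monocyte and neutrophil genes 2, 1 and 1 were lower and 3, 1 and 2 higher. Among these, Cd52 rose 9.37-fold, 20.7-fold and 28.7-fold (adjusted p = 1.4e-05, 1.32e-05 and 1.4e-05). On day 1 S100a8 rose 2.55-fold and S100a9 3.29-fold (adjusted p = 0.00021 and 0.000518). Lyz2 fell 1.27-fold on day 1 and 1.39-fold on day 3 (adjusted p = 0.00457 and 0.00108). In the order normoxia, day 1, day 3 and day 7, the summed level was 105 to 115, 102 to 103, 116 to 117 and 137 to 138 for border-associated macrophages, where Apoe, which astrocytes also express, carried 98.7% to 99.2% of it. Without Apoe the sum was 0.880 to 0.949, 0.896 to 0.927, 1.44 to 1.54 and 1.32 to 1.37. The summed level of the dendritic cell list was 2.33 to 2.42, 1.43 to 1.52, 1.47 to 1.52 and 1.94 to 1.96 in the same order. Cd83, which is also on the costimulation list, carried 67.5% to 79.9% of that sum. Without Cd83 it was 0.487 to 0.492, 0.407 to 0.410, 0.479 to 0.484 and 0.524 to 0.557. For B cells the summed level was 0.271 to 0.338, 0.255 to 0.268, 0.262 to 0.275 and 0.290 to 0.321. For T and NK cells it was 0.382 to 0.387, 0.345 to 0.365, 0.343 to 0.373 and 0.327 to 0.342. For monocytes and neutrophils the summed level was 7.86 to 8.32, 7.31 to 7.43, 7.08 to 7.16 and 9.34 to 9.62, where Lyz2 carried 77.7% to 95.4% of it. Without Lyz2 that sum was 0.369 to 0.381, 1.28 to 1.34, 1.51 to 1.60 and 1.99 to 2.04. The part of any cell type in the class II changes was not tested.

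The leptomeningeal and fibroblast list moved down with the members, at 12 of 14 genes lower on day 1, 13 on day 3 and 13 on day 7 (medians -1.09, -1.12 and -1.63). Col1a2, a chain of type I collagen, fell 2.77-fold, 2.47-fold and 3.46-fold (adjusted p = 3.65e-05, 6.28e-05 and 2.64e-05). All 20 choroid plexus genes were lower on day 1, 8 were lower and 5 higher on day 3, and 19 were lower and 1 higher on day 7. Ttr, the thyroxine carrier that the choroid plexus secretes, was 91.7-fold lower on day 1 (adjusted p = 4.02e-06) and 12.4-fold lower on day 7 (adjusted p = 2.44e-05), and it rose 1.36-fold on day 3 (adjusted p = 0.00507). Striatal genes were higher on day 1 in 15 of 15 and lower in 8 and higher in 2 on both day 3 and day 7. Whether the class II changes come from the amount of border tissue in a sample was not tested.

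**Figure D5:**
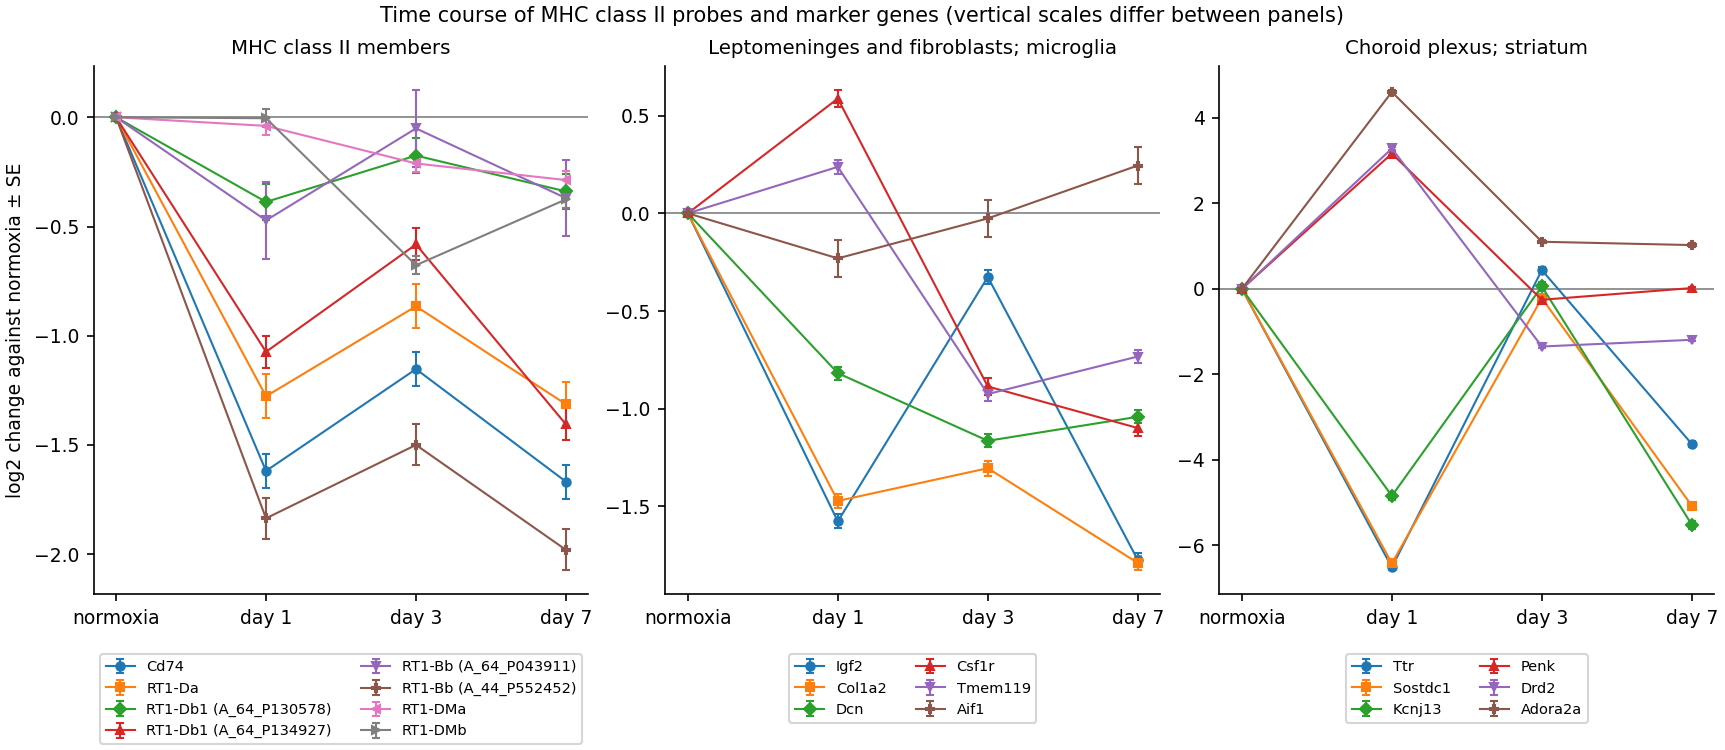
Log2 change ± SE against normoxia of 8 class II probes (left), of 6 leptomeningeal and microglial genes (middle) and of 6 choroid plexus and striatal genes (right), on days 1, 3 and 7 at equal spacing, with different vertical scales. Cd74, RT1-Da and the 3′ probes of RT1-Db1 and RT1-Bb share a dip, partial return and second dip, RT1-DMb is lowest on day 3, and the 3 choroid plexus genes lie near normoxia on day 3 and far below it on days 1 and 7.

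The members differed in how closely they followed Cd74 over the 8 arrays, which fall in 4 groups and share their labelling and slide. Pearson's r with Cd74 was 0.99 for RT1-Da, 0.98 and 0.95 for the 3′ probes of RT1-Bb and RT1-Db1, and 0.66 and 0.89 for their other probes. It was 0.58 for RT1-DMa, 0.52 for Ciita and 0.31 for RT1-DMb. Among 3182 other genes with a symbol whose group means spanned at least 1 log2, the 8 with the highest r were Cd38 (0.99), Col1a2 (0.98), Pcolce (0.98), Slc22a6 (0.97), Fam198b (0.97), Aldh1a2 (0.97), Atp2a3 (0.96) and Cubn (0.96). Of these, Col1a2, Slc22a6 and Aldh1a2 belong to the leptomeningeal and fibroblast list. Cd38, an enzyme that consumes NAD, had mean levels of -3.93 in normoxia, -5.47 on day 1, -5.04 on day 3 and -5.40 on day 7. These correlations describe the arrays and carry no test.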

How the data were processed

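Per the labels, total RNA was amplified with an oligo dT primer, labelled with Cy3 and hybridised by the authors to Agilent rat 8x60K arrays. Per the file headers, the deposited processed signal intensity comes from Agilent Feature Extraction 11.5.1.1 with annotation on rn4, background-subtracted and not scaled between arrays; mean spot and local background intensity are given beside it. The authors' deposited log2 values equal the log2 of that intensity less 1 constant per array, close to its 75th percentile (96.7% to 97.4% of values within 0.05) and served as an alternative; their scaling is not stated.

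Control and outlier spots were left out, log2 signals averaged over a probe's spots, and the 75th percentile of the array, taken over 30367 probes, subtracted. Probes detected above background on both arrays in 1 or more groups were kept (24678 of 30346 complete probes), counting a probe as above background where at least 0.5 of its spots were, and the brightest stood for a gene. limma 3.58.1 (R 4.3.3, lmFit and eBayes, 1 mean per group, two-sided, Benjamini-Hochberg over all genes, or over all probes where a second probe is given) called genes at an adjusted p under 0.05, with 4 residual and 1.22 prior degrees of freedom. It was tested on simulated data. The number of arrays limits the precision.

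The members and lists were chosen with earlier results of these data known. Named were all members and probes, up to 4 genes of smallest p per list and comparison, the first 2 markers of each cell-type list, and the 8 genes most like Cd74; not all are reported. Replicate numbers did not pair arrays, since same-numbered deviations correlated at -0.15 to 0.05 between groups. Data were handled with Python 3.11.15, pandas 2.3.3 and the R package data.table (version 1.17.8), and plots drawn with matplotlib 3.10.9.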

Additional observations from a re-analysis of the deposited data

How the results depend on the processing

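Counts of class II genes called were 4, 5 and 5 against normoxia on days 1, 3 and 7, all lower (20.2%, 26.2% and 29.7% of all genes lower). On day 3 against day 1 the count was 5 (3 lower and 2 higher, beside 23.0% and 28.2% of all genes). On day 7 against day 3 it was 4 (2 lower and 2 higher, beside 18.3% and 24.2%). Ciita is in all of these counts but that of day 7 against normoxia. With a fold of at least 2 added the counts were 2, 1, 2, 0 and 0, with 2.10%, 5.56% and 9.45% of all genes lower against normoxia. With median centring the day 7 count was 2, both lower (3730 of 21296 genes lower). With only the 2 groups compared the day 3 against day 1 count was 2, 1 lower and 1 higher (4748 and 5553 genes). The day 7 count against normoxia was then 7, all lower (5751 genes lower). The mean of a gene's probes gave 5, 7 and 6 against normoxia, all lower (4057, 5781 and 6673 of 21296 genes lower). It gave 7 on day 3 against day 1 (3 lower and 4 higher, beside 5171 and 5457 genes). On day 7 against day 3 it gave 6 (4 lower and 2 higher, beside 3946 and 4415 genes). Leaving out each array in turn gave 2 to 5, 5 to 5, 4 to 6, 3 to 5 and 2 to 4. The replicate number as a block gave 4, 5, 5, 5 and 4, the counts of the fit without a block. Cd74 and RT1-Da kept their direction under every alternative run and their calls against normoxia on days 1 and 7, and Cd74 on day 3 too, where RT1-Da missed only the added fold of 2. Their changes ranged from -1.64 to -1.36 (Cd74, day 1), -1.17 to -0.86 (day 3) and -1.78 to -1.24 (day 7), and from -1.39 to -1.03, -1.01 to -0.64 and -1.54 to -0.89 for RT1-Da. Directions turned for Ciita with normexp (0.0296, 0.35 and 0.60 against normoxia on days 1, 3 and 7, and 0.32 on day 3 against day 1) and with quantile normalization (0.29, day 7), and for RT1-DMa with median centring (0.0077, day 7); the cause was not tested. Changes that passed no threshold in either setting also turned sign in 13 cases, among them Ciita on day 7 with median centring and RT1-Bb on day 3 with quantile normalization, median centring, the GC correction and without day 3 array 2. Among all called genes the share higher was 48.0%, 51.5%, 55.1% and 57.0% on day 3 and day 7 against normoxia, day 3 against day 1 and day 7 against day 3, but 66.7%, 73.1%, 68.9% and 77.2% with median centring and 67.8%, 71.5%, 70.7% and 63.1% with normexp. Correcting arrays for a trend with the GC content of probes, chosen after seeing the data, ended the calls of RT1-DMa on days 3 and 7 (-0.05 and -0.07) and of the brighter RT1-Db1 probe on day 7 (-0.10). Low signal limits Ciita and RT1-Ba.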
